A study of Homo sapiens with 26 samples.

Results

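Expression of 36 genes of glycolysis and of the response to low oxygen was examined in 2 human lymphoma lines in which POU2AF1 or POU2F2 had been repressed. The 36 genes were taken by name from a list, drawn up with earlier results of these data known, out of 58592 genes that could be summed from the transcript estimates. They comprise glucose transporters, the enzymes of glycolysis with their fructose 2,6-bisphosphate regulators, the enzymes and transporters that decide the fate of pyruvate and lactate, 1 gluconeogenic enzyme, HIF1A with the hydroxylases EGLN1 and EGLN3, and 7 targets of the hypoxia response.

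Glycolysis splits glucose into pyruvate, which is either oxidised in mitochondria or reduced to lactate and exported. When oxygen is scarce, the EGLN prolyl hydroxylases no longer mark HIF1A protein for destruction, and HIF1A raises transcription of most glycolytic enzymes, of the glucose transporters, of PDK1 and of genes such as BNIP3, VEGFA and ADM. Germinal-centre B cells and the lymphomas that arise from them take up glucose at a high rate. POU2F2 (also called OCT2) is a transcription factor of B cells that binds the octamer motif, and POU2AF1 (also called OCA-B or OBF1) is the coactivator that binds POU factors on it.

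Both lines, OCI-Ly7 and SUDHL4 (SU-DHL-4), are established lines of diffuse large B cell lymphoma. All libraries, controls included, came from cells transduced by lentivirus with a catalytically dead Cas9 fused to BFP and the KRAB repressor domain; the knockdown cells carried guides against the POU2AF1 or the POU2F2 promoter and the controls carried non-targeting guides. OCI-Ly7 cells grew in IMDM with 20% serum and SUDHL4 cells in RPMI with 10% serum, so the line and the medium cannot be told apart. After repeated files of the same library were merged, OCI-Ly7 had 6 POU2AF1 knockdown, 8 POU2F2 knockdown and 4 control libraries, and SUDHL4 had 1 POU2AF1 knockdown, 2 POU2F2 knockdown and 1 control library. The labels give a batch for each library. OCI-Ly7 POU2AF1 knockdown replicates 1 to 4, OCI-Ly7 control replicate 1 and all SUDHL4 libraries are batch 1, and the other OCI-Ly7 libraries are batch 2. Most batch 2 descriptions also carry 1 of the tags s0 to s3, called series marks here, whose meaning the labels do not give. A time of 48 h is labelled for POU2AF1 knockdown replicate 3 and POU2F2 knockdown replicate 3 of OCI-Ly7, and for the control file left out because it repeats the sum of the 2 files merged as control replicate 1, and for no other file. The labels do not say whether replicates are separate cultures, so p-values measure the spread between these libraries, which may be technical.

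The 26 files held 24959865 to 53155548 estimated reads each, and 7.04% to 25.8% of the reads came from mitochondrially encoded genes, with the highest share in OCI-Ly7 POU2AF1 knockdown replicate 1. The repressed genes followed their labels. In OCI-Ly7, POU2AF1 had 27.3, 36.9 and 87.9 CPM (counts scaled to the size of the library; lowest, median and highest) in POU2AF1 knockdown libraries, against 445 to 470 CPM in controls, and POU2F2 had 55.7, 69.3 and 148 CPM in POU2F2 knockdown libraries, against 207 to 407 CPM in controls. In SUDHL4, POU2AF1 had 79.8 CPM in its knockdown and 443 CPM in the control, and POU2F2 had 43.5 and 55.3 CPM in its knockdown and 330 CPM in the control. The 7 B cell markers all had medians above 1 TPM (transcript abundance per length, scaled to the library), and 8 of 8 myeloid markers and 8 of 10 T and NK cell markers had medians below 1 TPM.

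Between genes, levels are compared in TPM, which is per transcript length. GAPDH, which oxidises glyceraldehyde 3-phosphate, led the 36 genes with a mean of 4171 TPM over the 22 libraries. LDHA, the subunit of lactate dehydrogenase that predominates in the reduction of pyruvate to lactate, followed with 1637 TPM, ENO1 (enolase) with 1331 TPM, PKM (pyruvate kinase) with 1086 TPM and ALDOA (aldolase A) with 1067 TPM. TPI1 (triose phosphate isomerase), LDHB (the other main lactate dehydrogenase subunit) and PGAM1 (phosphoglycerate mutase) averaged 708, 510 and 405 TPM. The order of PKM and ALDOA is within their spread, since in OCI-Ly7 controls PKM averaged 1222 ± 248.9 TPM and ALDOA 1216 ± 170 TPM (SD, n = 4). The order differed by line, and in the SUDHL4 control TPI1 (1186 TPM) and ALDOA (1148 TPM) stood above ENO1 (1081 TPM) and PKM (970 TPM). At the other end, ADM averaged 0.531 TPM, NDRG1 0.364 TPM and EGLN3 0.0418 TPM, and EGLN3 was too low to test in either line. Together the glycolytic enzymes made up 0.554% to 1.30% of all transcripts.

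Within OCI-Ly7 the genes differed widely in how much they varied between libraries. HIF1A itself, with a highest over lowest CPM of 1.5, and GAPDH, with 1.87, were among the steadiest. PFKFB4, which makes the phosphofructokinase activator fructose 2,6-bisphosphate, varied 58.3-fold, ALDOC (aldolase C) 50.9-fold and BNIP3, a mitochondrial protein that promotes mitophagy, 8.84-fold. The high libraries of these genes were found in all 3 guide groups, as the map of the members by library shows.

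**Figure D1:**
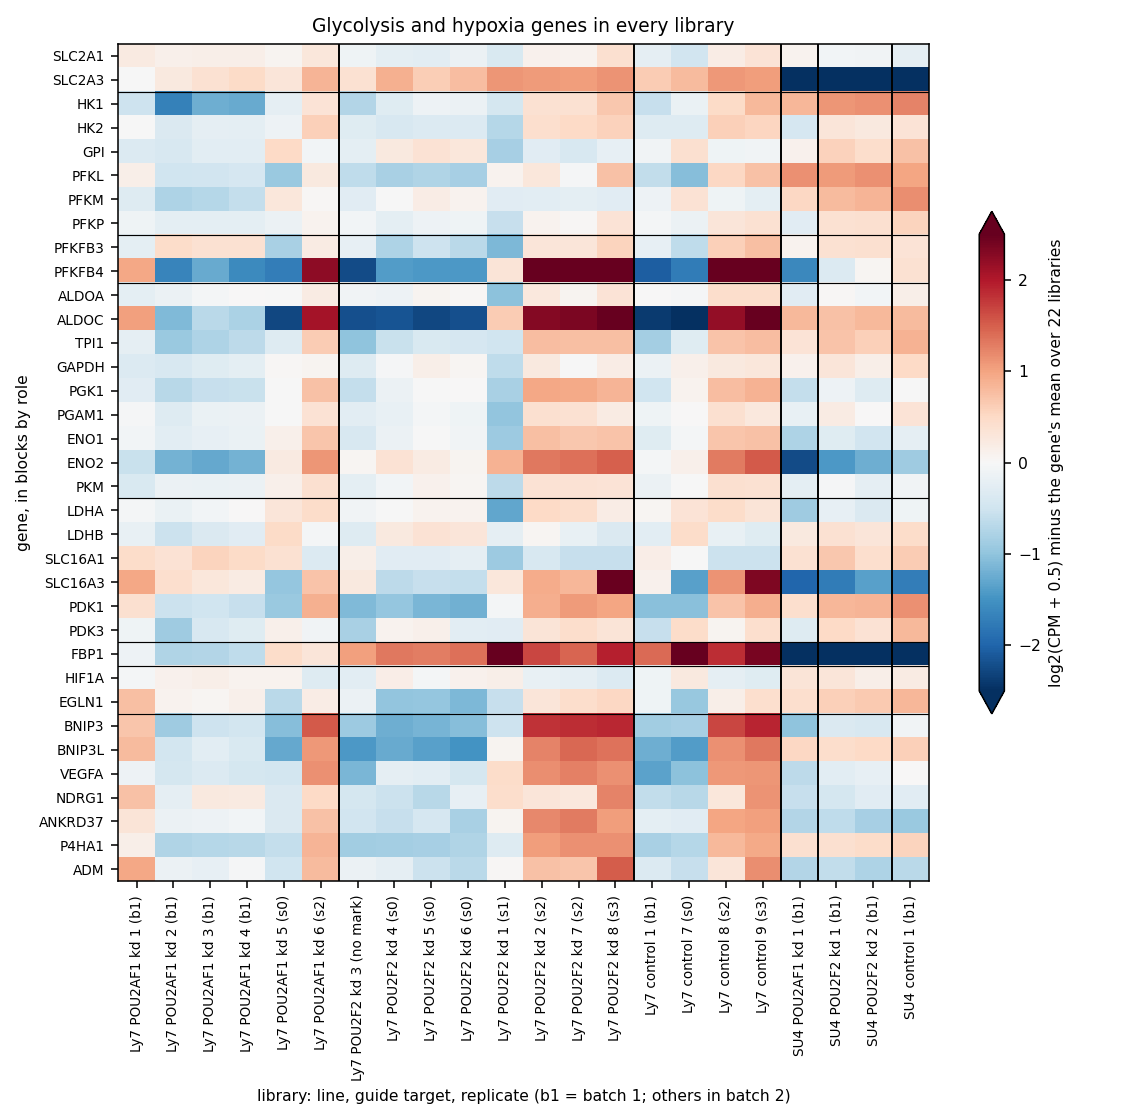
Expression of 35 of the 36 genes (drawn in blocks by role; EGLN3 was too low to draw) in the 22 libraries (by group, with the batch or series mark), as log2(CPM + 0.5) minus the mean of the gene over all libraries; colours saturate at the ends of the bar. The libraries marked s2 and s3 stand out in the hypoxia targets, PFKFB4 and ALDOC in every OCI-Ly7 group that has them, and FBP1 is low in OCI-Ly7 POU2AF1 knockdown and near 0 in SUDHL4.

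In OCI-Ly7, FBP1 was lower in POU2AF1 knockdown than in control, and it was the 1 gene of the 35 tested that was called (an adjusted p below 0.05). The glycolytic enzymes, the lactate dehydrogenases and the hypoxia targets were not called. FBP1 encodes fructose-1,6-bisphosphatase, the gluconeogenic enzyme that opposes phosphofructokinase (ENSG00000165140, chr9:94603133-94640249, minus strand, GRCh38). It had 14.8, 9.36, 9.53, 10.2, 22.3 and 20.2 CPM in the 6 POU2AF1 knockdown libraries, against 43.8, 98.9, 59.2 and 85.5 CPM in the 4 controls. Every knockdown library was below every control. The means were 14.4 ± 5.7 CPM in POU2AF1 knockdown (SD, n = 6) and 71.9 ± 25 CPM in control (SD, n = 4), a fitted log2 change of -1.95 (SE 0.27, edgeR quasi-likelihood test, Benjamini-Hochberg adjusted p = 0.0011). As bulk libraries, these cannot tell a lower level per cell from fewer cells expressing the gene. Over all 16002 genes tested, 0.887% were called in either direction and 0.606% were called lower. Control replicate 1 is the only OCI-Ly7 control of batch 1. A fit with batch as a term but without that library therefore takes the change from batch 2 alone, and is not a check separate from batch 2. The call rests on both batches together and on 1 control library: within batch 1 the change was -1.97 (adjusted p = 0.068), within batch 2 -1.91 (adjusted p = 0.219), and without control replicate 1 -1.91 (adjusted p = 0.104).

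The median change of the 35 genes was -0.05 on the log2 scale, beside -0.0042 over all genes tested, with 15 positive and 20 negative. The libraries of the series marks s2 and s3 spread many of these genes widely, and a fit with the series mark as a term in place of batch had a lower spread between libraries, with a biological coefficient of variation of 0.1458, against 0.2965 with batch. In that fit 5.58% of all genes were called, 2.49% higher and 3.09% lower, and of the 35 genes FBP1 was lower (-1.89, adjusted p = 1.2e-05) and 2 transporters were higher. Without POU2AF1 knockdown replicate 1, the library with 25.8% mitochondrial reads, that fit called 5 of the 35, 3 higher and 2 lower. SLC2A1, the main basal glucose importer, had 101, 108 and 118 CPM (lowest, median and highest) in POU2AF1 knockdown, against 83.1, 69.7, 111 and 123 CPM in controls. Its change was 0.34 with the series mark (SE 0.072, adjusted p = 0.0087) and 0.23 with batch (SE 0.18, adjusted p = 1.0). SLC16A1, the monocarboxylate transporter MCT1 that carries lactate and pyruvate, had 81.4, 138 and 152 CPM in POU2AF1 knockdown, against 116, 103, 70.5 and 70.8 CPM in controls. Its change was 0.32 with the series mark (SE 0.086, adjusted p = 0.038) and 0.37 with batch (SE 0.19, adjusted p = 0.919). For both transporters the groups overlapped when the marks were ignored, and within batch 1, s0 and s2 every POU2AF1 knockdown library was above the control of the same mark.

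**Figure D2:**
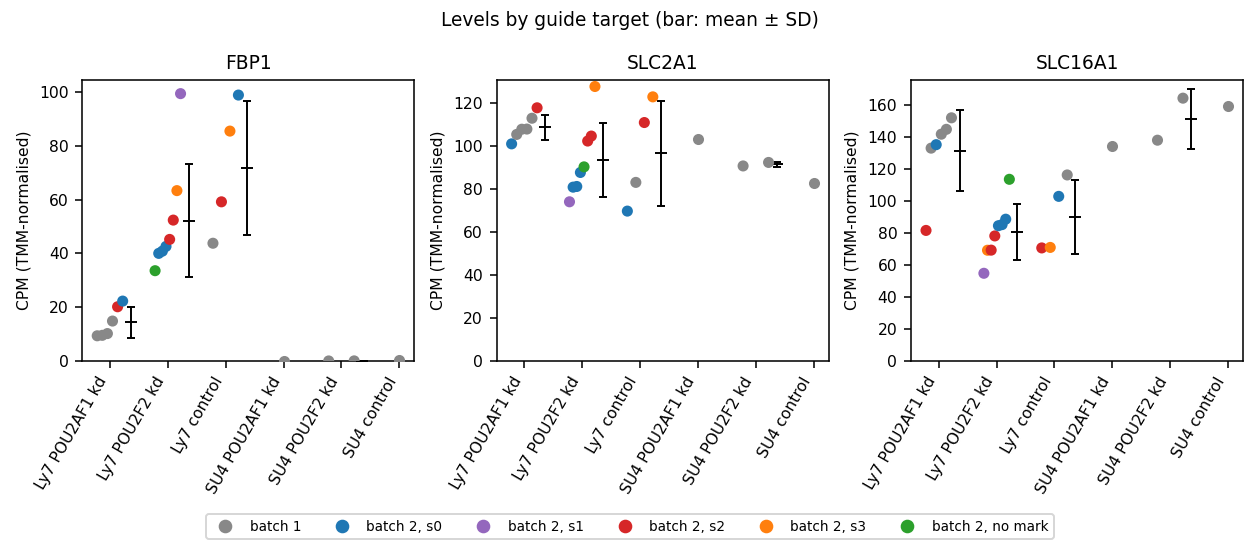
CPM of FBP1, SLC2A1 and SLC16A1 in each library by line (Ly7, OCI-Ly7; SU4, SUDHL4) and guide group, coloured by batch and series mark, with the group mean ± SD beside groups of more than 1 library. FBP1 lies between 9.36 and 22.3 CPM in OCI-Ly7 POU2AF1 knockdown and between 43.8 and 98.9 CPM in OCI-Ly7 control, while the transporters overlap between the OCI-Ly7 groups.

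Among the highly expressed enzymes the OCI-Ly7 POU2AF1 knockdown and control groups overlapped. GAPDH had 3039, 3313 and 4195 CPM (lowest, median and highest) in POU2AF1 knockdown, against 3586, 4339, 4737 and 4837 CPM in controls. LDHA averaged 1593 ± 284 CPM in POU2AF1 knockdown (SD, n = 6) and 1837 ± 217 CPM in control (SD, n = 4). ENO1 averaged 1710 ± 484 CPM in POU2AF1 knockdown and 2074 ± 714 CPM in control. The fitted changes of GAPDH, LDHA, ENO1 and PKM, with batch as a term, were between -0.16 and 0.02 on the log2 scale. The hypoxia targets as a group had a median change of 0.18 with batch as a term, and none was called. With the series mark as a term their median was 0.52, beside -0.0055 over all genes, and again none was called. In batch 1 alone, BNIP3L and PDK1 were among the genes that stood above the 1 control library in all 4 POU2AF1 knockdown libraries. VEGFA, ALDOC and PFKFB4 did so as well. Others, among them ENO2 (the neuronal enolase), GAPDH and FBP1, stood below that control in all 4. How many genes went each way was not counted, neither for the genes examined nor over all genes, so BNIP3L and PDK1 are examples only. BNIP3L, a mitophagy receptor related to BNIP3, had 90.0, 37.6, 42.8 and 39.4 CPM in these 4 knockdown libraries, against 21.9 CPM in the batch 1 control. PDK1, the kinase that shuts off pyruvate dehydrogenase, had 52.7, 27.3, 28.3 and 26.6 CPM in these knockdown libraries, against 19.2 CPM in that control. The highest value was in each case that of replicate 1, the library with 25.8% mitochondrial reads, and the other 3 knockdown libraries were above the control as well. In the s0 pair the difference was smaller, with 21.1 CPM of BNIP3L in POU2AF1 knockdown and 19.2 CPM in control, and in the s2 pair it went the other way, with 110 CPM in POU2AF1 knockdown and 115 CPM in control. Of the other genes of glucose metabolism 0 of 41 tested were called, and of the other genes of the hypoxia response 0 of 34. Of the 7 B cell markers 1, CD22, fell by 0.70 on the log2 scale beside these values (adjusted p = 0.0026), and the T and NK cell markers summed to 1.91 to 4.68 TPM in POU2AF1 knockdown and 2.35 to 4.10 TPM in control. Their part in the result was not tested.

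In OCI-Ly7 POU2F2 knockdown, 0 of the 35 genes were called, as were 0 of all 16002 genes (0%; 283 genes had an unadjusted p under 0.05, and DESeq2 called 5 genes, 0.0312%, none of them of the 35). The libraries marked s2 and s3 lie on both sides of this comparison and widen both groups, but they are not evenly shared. Control replicates 8 and 9 carry s2 and s3, beside control replicates 1 and 7 without them. Among the 8 POU2F2 knockdown libraries, replicates 2, 7 and 8 carry them. Group means and the fit with batch therefore also carry differences between the marks. The median change of the 35 genes was -0.25, with 33 of 35 negative, beside 0 over all genes. With the series mark as a term it was -0.0041, and again 0 of the 35 were called, beside 0.0812% of all genes. FBP1 had 33.6, 43.9 and 99.4 CPM (lowest, median and highest) in the 8 POU2F2 knockdown libraries, against 43.8, 98.9, 59.2 and 85.5 CPM in controls, and the groups overlapped. Its change was -0.64 (SE 0.24, unadjusted p = 0.017, adjusted p = 1.0), and it was the 1 gene of the 35 with an unadjusted p under 0.05. LDHA averaged 1565 ± 461 CPM in POU2F2 knockdown (SD, n = 8) and 1837 ± 217 CPM in control (SD, n = 4). ENO1 averaged 1857 ± 729 CPM in POU2F2 knockdown and 2074 ± 714 CPM in control. POU2F2 knockdown replicate 1, the single library marked s1, was the lowest of its group for both genes, with 605 CPM of LDHA and 880 CPM of ENO1.

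The POU2F2 knockdown was also set against the POU2AF1 knockdown of the same line, which uses the same knockdown libraries as the comparisons above. None of the 35 genes was called, beside 0.162% of all genes. FBP1 was 1.31 higher in POU2F2 knockdown than in POU2AF1 knockdown on the log2 scale (adjusted p = 0.121), with all 8 POU2F2 knockdown libraries above all 6 POU2AF1 knockdown libraries. With the series mark as a term the difference was 1.13 (adjusted p = 0.0055), and SLC16A1 was lower in POU2F2 knockdown by that fit (-0.42, adjusted p = 0.026), where 0.85% of all genes were called higher and 0.406% lower, 1.26% in all.

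In SUDHL4, the POU2AF1 knockdown library had lower levels of most glycolytic enzymes than the control library, with 1 library on each side. Of 34 genes tested, 19 were called lower and 1 higher by a fit whose spread came from the 2 POU2F2 knockdown libraries alone (1 residual degree of freedom, biological coefficient of variation 0.0779). In that fit 36.8% of all genes were called, 18.8% lower and 18% higher, so that calls were common in this comparison whatever the gene. The median change of the 34 genes was -0.52, against 0.01 over all genes tested, and 28 of 34 were negative. A fit of all 22 libraries, in which the single libraries are assumed to vary as the OCI-Ly7 replicates do, called 0 of these genes, with adjusted p from 0.173 to 0.940 for the 20, and 1.67% of all genes. The fit of all libraries had batch but not the series mark as a term. Its spread (biological coefficient of variation 0.2983) thus includes the OCI-Ly7 differences between marks, so its lack of calls does not decide whether the SUDHL4 differences would repeat. The values of the single libraries are therefore given with counting depth of 59431474 reads in POU2AF1 knockdown and 50415776 reads in control, and without a check by replicates.

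Of 6 genes of upper glycolysis, 5 were called lower. HK2, the hexokinase that is induced in many tumours, had 99.5 CPM in POU2AF1 knockdown and 168 CPM in control (log2 change -0.74, SE 0.11). PFKP, the platelet-type phosphofructokinase, had 95.1 CPM in POU2AF1 knockdown and 171 CPM in control (-0.83, SE 0.11). PFKM, the muscle type, had 166 CPM in POU2AF1 knockdown and 260 CPM in control (-0.62, SE 0.11). Hexokinase and phosphofructokinase catalyse regulated steps of the pathway. GPI, the glucose-6-phosphate isomerase between them, had 365 CPM in POU2AF1 knockdown and 557 CPM in control (-0.59, SE 0.13). HK1, the constitutive hexokinase, had 82.2 CPM in POU2AF1 knockdown and 109 CPM in control (-0.39, SE 0.10). PFKL, the liver-type phosphofructokinase, had 258 CPM in POU2AF1 knockdown and 231 CPM in control and was not called (0.18, adjusted p = 0.224). Of the 2 enzymes of fructose 2,6-bisphosphate, PFKFB4 was called lower, with 4.99 CPM in POU2AF1 knockdown and 21.5 CPM in control (-2.09, SE 0.20, adjusted p = 7.9e-08). Its relative PFKFB3 had 79.0 CPM in POU2AF1 knockdown and 94.4 CPM in control and was not called (-0.24, adjusted p = 0.0696).

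Of 9 genes of lower glycolysis, 6 were called lower. ENO2, the neuronal enolase, had 10.9 CPM in POU2AF1 knockdown and 28.5 CPM in control (-1.37, SE 0.15). ENO1, the common form, had 961 CPM in POU2AF1 knockdown and 1410 CPM in control (-0.53, SE 0.15). PGK1, phosphoglycerate kinase, had 358 CPM in POU2AF1 knockdown and 538 CPM in control (-0.57, SE 0.13). The other 3 differed by similar amounts on the log2 scale, PGAM1 and TPI1 by -0.52 each and ALDOA by -0.40. GAPDH, with 4300 CPM in POU2AF1 knockdown and 5602 CPM in control, PKM, with 1546 CPM in POU2AF1 knockdown and 1707 CPM in control, and ALDOC, with 70.7 CPM in POU2AF1 knockdown and 69.7 CPM in control, were not called. Around pyruvate, 3 of 6 genes were called lower. LDHA had 809 CPM in POU2AF1 knockdown and 1381 CPM in control (-0.75, SE 0.15). PDK1 had 53.6 CPM in POU2AF1 knockdown and 88.8 CPM in control (-0.71, SE 0.10). PDK3, another pyruvate dehydrogenase kinase, had 4.97 CPM in POU2AF1 knockdown and 11.5 CPM in control (-1.19, SE 0.20). LDHB, SLC16A1 and SLC16A3 were not called, with changes of -0.19, -0.23 and -0.57.

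Of the hypoxia targets, 2 of the 6 tested were called lower. BNIP3 had 42.3 CPM in POU2AF1 knockdown and 80.6 CPM in control (-0.91, SE 0.10). VEGFA, the vascular growth factor, had 25.1 CPM in POU2AF1 knockdown and 40.4 CPM in control (-0.67, SE 0.12). BNIP3L (-0.06), P4HA1, a collagen prolyl hydroxylase subunit (-0.13), ANKRD37 (0.27) and NDRG1 (-1.41, SE 1.1) were not called. The oxygen sensor EGLN1 had 43.6 CPM in POU2AF1 knockdown and 57.5 CPM in control and was called lower (-0.38, SE 0.11), and HIF1A was not called (0.14). The 1 gene called higher was SLC2A1, with 103 CPM in POU2AF1 knockdown and 82.8 CPM in control (0.34, SE 0.10, adjusted p = 0.0084). FBP1 was nearly silent in this line, with 1 read in POU2AF1 knockdown and 16 reads in control, and it was the last of the 19 genes called lower (adjusted p = 0.0367).

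Other features moved with this difference. All 7 B cell markers were higher in the SUDHL4 POU2AF1 knockdown library, by 0.82 to 2.13 on the log2 scale, and summed to 3649 TPM there against 1907 TPM in control. The T and NK cell markers summed to 12.2 TPM in POU2AF1 knockdown and 39.0 TPM in control, where of 5 tested CD247 was called lower (-1.72) and 3 were called higher, and mitochondrially encoded genes took 12.8% of reads in POU2AF1 knockdown and 9.76% in control. Their part in the result was not tested. Among 43 other genes of glucose metabolism 6 were called higher and 15 lower, with SLC2A6, a lysosomal glucose transporter, higher (1.68), PGLS, of the pentose phosphate pathway, higher (0.93), GPD2, a mitochondrial glycerol phosphate dehydrogenase, lower (-0.84) and the pyruvate dehydrogenase phosphatase PDP2 lower (-0.94). Among 33 other genes of the hypoxia response 5 were called higher and 7 lower, with DDIT4, an inhibitor of mTOR signalling, higher (1.16) and FAM162A, ZNF395 and the protein disulphide oxidase ERO1A lower (-1.09, -1.08 and -0.71).

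**Figure D3:**
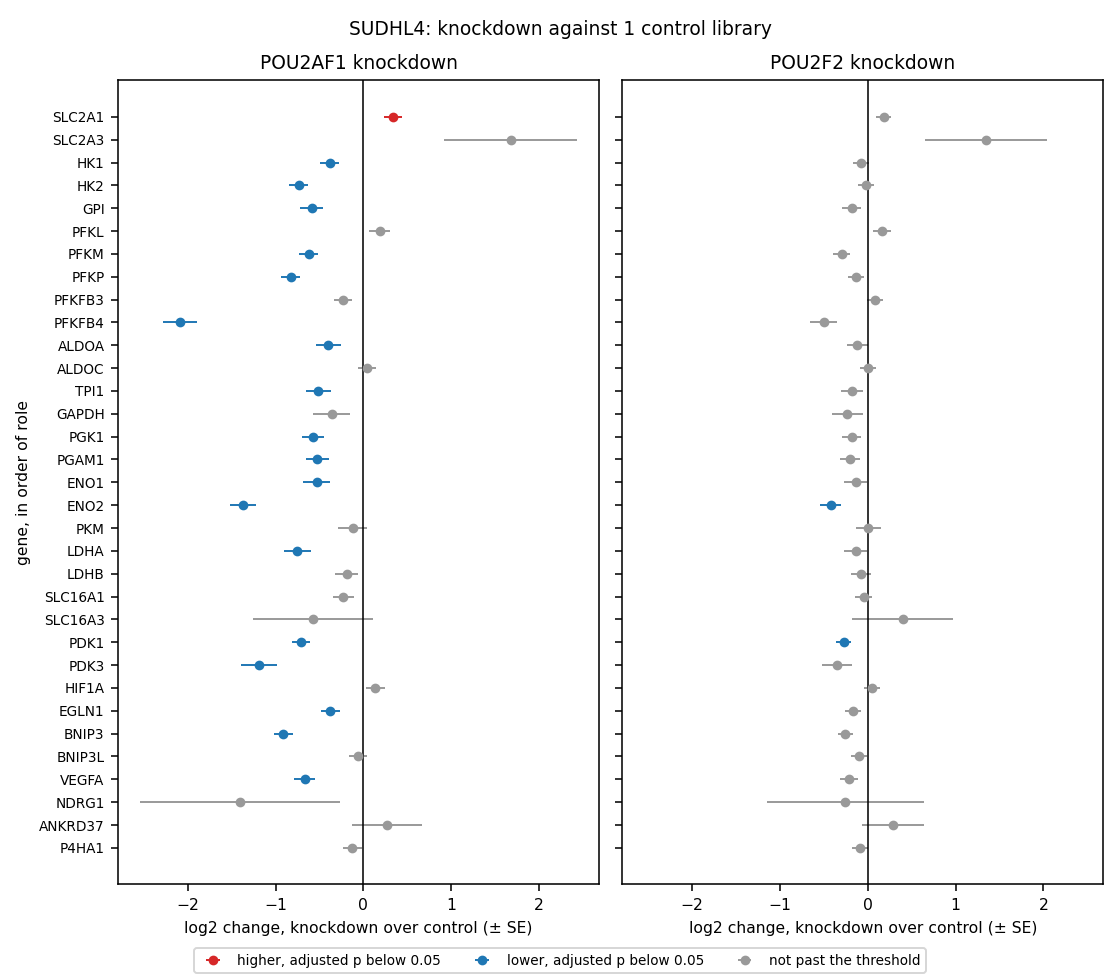
Log2 change against the SUDHL4 control library of 33 genes (lines, by role) in the SUDHL4 POU2AF1 knockdown library and in the 2 POU2F2 knockdown libraries, with the standard error of the fit of the 4 SUDHL4 libraries as bars. FBP1, which had few reads, is not drawn. PFKFB4 (-2.09), NDRG1 (-1.41, not called), ENO2 (-1.37) and PDK3 (-1.19) are farthest to the left in POU2AF1 knockdown, and the POU2F2 changes lie nearer 0. Both share the 1 control library.

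In SUDHL4 POU2F2 knockdown, 3 of 34 genes were called lower and none higher, beside 7.36% of all genes called and 2.56% called lower. The comparison uses the same control library as the POU2AF1 knockdown, so that the 2 sets of changes are not independent. ENO2 had 19.1 and 22.4 CPM in the 2 POU2F2 knockdown libraries and 28.5 CPM in control (-0.42, SE 0.12, adjusted p = 0.027). PDK1 had 71.1 and 72.2 CPM in POU2F2 knockdown and 88.8 CPM in control (-0.28, SE 0.088, adjusted p = 0.0499). FBP1 had 0 and 1 reads in POU2F2 knockdown and 16 reads in control (adjusted p = 0.027). Both knockdown libraries were below the control for each of the 3 genes. The median change of the 34 genes was -0.13, against 0.01 over all genes, and neither the fit of all libraries, which called 0.0952% of all genes, nor DESeq2 called any of them. LDHA had 1300 and 1157 CPM in POU2F2 knockdown and 1381 CPM in control, and PFKFB4 12.9 and 16.9 CPM in POU2F2 knockdown and 21.5 CPM in control, and neither was called. Beside these values 5 of 7 B cell markers were called higher in POU2F2 knockdown. The T and NK cell markers summed to 18.2 and 22.3 TPM in POU2F2 knockdown and 39.0 TPM in control. CD247, with up to 37.9 TPM in a library, dominated that sum, and of 5 such markers tested 4 had positive changes and 1 a negative change. Mitochondrially encoded genes took 14.0% and 10.3% of reads in POU2F2 knockdown and 9.76% in control. The part of the markers and of these reads in the result was not tested. Among 43 other glucose genes 4 were called higher, SLC2A6 (0.80), PGLS (0.33), GPD1 (1.26) and PFKFB2 (0.71), and 1 lower. Among 33 other hypoxia genes 1 was called higher and 2 lower.

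The lines themselves differed in a few of these genes. Between OCI-Ly7 control and SUDHL4 control, 2 of 35 genes were called higher and 4 lower, beside 11% of all genes higher and 12.5% lower (23.5% in either direction), and the median difference of the 35 was -0.51, against 0.07 over all genes. That median depends on the scale and the fit, at -0.10 without a batch term, -0.21 without OCI-Ly7 control replicate 1, and, for group means without a fit, -0.14 in CPM and 0.09 in TPM. SLC2A3, a high-affinity glucose transporter, had 12.0, 13.4, 16.6 and 16.0 CPM in OCI-Ly7 controls and 0.167 CPM in the SUDHL4 control (6.15, SE 0.46, adjusted p = 9.3e-09). FBP1 had 43.8 to 98.9 CPM in OCI-Ly7 controls and 0.333 CPM in the SUDHL4 control (7.0, SE 0.74, adjusted p = 7.7e-07). In the 2 other SUDHL4 groups FBP1 had 1, 0 and 1 reads, where 3 reads, the limit that a count of 0 allows, would be 0.0569 to 0.0692 CPM. FBP1 was thus at or under that limit in all 3 SUDHL4 knockdown libraries, and its SUDHL4 values rest on few reads.

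Of the 4 genes lower in OCI-Ly7 control, HK1 had 30.8, 41.3, 64.4 and 81.5 CPM in OCI-Ly7 controls and 109 CPM in the SUDHL4 control (-1.91, SE 0.47). PFKM had 107, 149, 107 and 98.1 CPM in OCI-Ly7 controls and 260 CPM in the SUDHL4 control (-1.56, SE 0.26). GPI had 318, 442, 311 and 315 CPM in OCI-Ly7 controls and 557 CPM in the SUDHL4 control (-0.99, SE 0.35). PDK3 was the fourth, and for each of the 4 the SUDHL4 library was above every OCI-Ly7 control. With the series mark as a term, 4 genes were called higher and 17 lower in OCI-Ly7, beside 22.6% and 21.9% of all genes (44.5% in either direction). The further genes called higher there were SLC16A3, the lactate exporter MCT4 (2.92), and ANKRD37 (1.05), and PDK1 (-1.89), TPI1 (-1.59), PFKL (-1.41) and P4HA1 (-1.26) were among those lower. All SUDHL4 libraries are batch 1, so with batch or mark as a term these differences refer to the OCI-Ly7 batch 1 level, which has 1 control library. PDK1 had 19.2 CPM in that control, 65.5 and 75.1 CPM in the s2 and s3 OCI-Ly7 controls, and 88.8 CPM in the SUDHL4 control.

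Whether the lines responded differently was tested as the difference of the 2 responses in the fit of all libraries. For POU2AF1, 0 of 35 genes were called, beside 0.798% of all genes, and the median of the differences, OCI-Ly7 minus SUDHL4, was 0.48. With the series mark as a term 8 of 35 were called, 7 higher and 1 lower, beside 10.3% of all genes, 5.05% higher and 5.24% lower. The response was higher in OCI-Ly7 than in SUDHL4 for HK2 (0.88), PFKP (0.72), LDHA (0.71), ENO1 (0.66), GPI (0.55), PGAM1 (0.50) and VEGFA (1.22), and lower for SLC2A3 (-2.02), with adjusted p from 0.0019 to 0.0473. The SLC2A3 difference rests on few SUDHL4 reads, at 0.531 CPM (0.244 TPM) in the POU2AF1 knockdown library and 0.167 CPM (0.199 TPM) in the control library. For POU2F2, 0 of 35 were called, beside 0.0106% of all genes, with a median of -0.07, and 0 with the series mark as a term, beside 0.222% of all genes.

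The series mark was the feature of the OCI-Ly7 libraries that went with the widest differences in these genes. Comparing the 4 libraries marked s2 with the 5 marked s0, with the guide group as a term, 32 of 35 genes were called, 27 higher and 5 lower. In the same fit 52% of all genes were called, 25.2% higher and 26.9% lower, so the marks separate the libraries in most of the transcriptome, and the labels do not say what was changed between them. The median change of the 35 genes was 0.83, against 0.01 over all genes. By range, 25 genes had every s2 library above every s0 library, 4 had every s2 library below, and 7 of the 36 overlapped. Ranges were compared for these 36 genes only, so no share over all genes stands beside these counts. This comparison was added after the values were seen.

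The hypoxia targets were higher together in s2. BNIP3 had 250, 303, 311 and 272 CPM in the s2 libraries, against 40.8, 36.4, 38.0, 40.5 and 48.2 CPM in the s0 libraries (2.80, SE 0.29, adjusted p = 8.0e-06). BNIP3L had 110 to 140 CPM in s2 and 17.9 to 21.3 CPM in s0 (2.63), and VEGFA 85.6 to 97.3 CPM in s2 and 19.4 to 34.3 CPM in s0 (1.68). None of these ranges overlapped. P4HA1 (1.74), ANKRD37 (1.75), NDRG1 (2.42) and ADM, the peptide hormone adrenomedullin (2.71), were also called higher, although NDRG1 had 0.529 to 0.704 CPM and ADM 0.611 to 1.06 CPM in s2. The oxygen sensor EGLN1, itself a target of HIF, had 35.8 to 43.7 CPM in s2 and 14.6 to 20.1 CPM in s0 (1.23). HIF1A mRNA was lower in s2, with 77.2 to 85.5 CPM, against 94.2 to 115 CPM in s0 (-0.36, SE 0.073, adjusted p = 8.3e-04). Beside these values 2 of 7 B cell markers were called lower in s2, MS4A1 (-0.48) and CD79A (-0.46), and 1 higher, PAX5 (0.33), and the 7 summed to 2722 to 2878 TPM in s2 and 2961 to 3665 TPM in s0. Of 3 T and NK cell markers tested CD3E was called lower (-1.43), as was CD14, the 1 myeloid marker tested (-1.51). The T and NK cell markers summed to 2.58 to 4.10 TPM in s2 and 3.12 to 4.68 TPM in s0, and the myeloid markers to 0.215 to 0.448 TPM in s2 and 0.495 to 1.14 TPM in s0. Mitochondrially encoded genes took 9.57% to 10.3% of reads in s2 and 8.56% to 9.54% in s0. Their part in the result was not tested.

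The glycolytic genes split. ALDOC had 172, 199, 208 and 184 CPM in s2, against 7.88, 8.55, 7.81, 8.29 and 4.88 CPM in s0 (4.74, SE 0.52), and PFKFB4 78.8 to 107 CPM in s2 and 4.48 to 5.88 CPM in s0 (4.21, SE 0.59). PDK1 had 65.5 to 83.5 CPM in s2 and 17.2 to 20.7 CPM in s0 (1.98). SLC16A3 had 4.64 to 6.4 CPM in s2 and 0.736 to 1.61 CPM in s0 (2.10). The abundant enzymes moved less: TPI1 by 1.11, PGK1 by 0.88, HK2 by 0.83, ENO1 by 0.73, PGAM1 by 0.44, PKM by 0.34, LDHA by 0.29 and ALDOA by 0.25. GAPDH, with 3960 to 4737 CPM in s2 and 3926 to 4386 CPM in s0, was not called (0.07, adjusted p = 0.400), and neither were PDK3 and FBP1. Called lower were GPI (-0.58), LDHB (-0.46), SLC16A1 (-0.41) and PFKM (-0.35), so the isomerase and 1 phosphofructokinase of upper glycolysis went against HK2, PFKL (1.15) and PFKP (0.28).

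The split was present in each guide group taken alone, although these groups are small. POU2AF1 knockdown and control had 1 library of each mark, and POU2F2 knockdown had 2 marked s2 and 3 marked s0. In 28 of 35 genes the s2 mean was above the s0 mean in all 3 groups, and in 5 it was below. The same count was not made over all genes. BNIP3 was 6.13-fold higher in s2 than in s0 in POU2AF1 knockdown, 8.01-fold in POU2F2 knockdown and 5.65-fold in control. PFKFB4 was 17.3-fold higher in POU2AF1 knockdown, 17.7-fold in POU2F2 knockdown and 21.5-fold in control, and ALDOC 21.8-fold, 24.7-fold and 37.8-fold in these groups. The 2 libraries marked s3, from POU2F2 knockdown and control, had 319 and 322 CPM of BNIP3 and 179 and 178 CPM of PFKFB4, above every s2 library. For LDHA they did not stand with s2, with 1695 to 1870 CPM in s3, 2035 to 2109 CPM in s2 and 1487 to 1879 CPM in s0. The 7 hypoxia targets summed to 433 to 531 TPM in the s2 and s3 libraries, and among the others POU2AF1 knockdown replicate 1 had 155 TPM and POU2F2 knockdown replicate 1 had 154 TPM. Of 34 other hypoxia genes 21 were called higher in s2 and 2 lower, with the demethylase KDM3A (1.49), WSB1 (1.48), ZNF395 (1.37) and the demethylase KDM4B (1.36) among the higher. Of 41 other glucose genes 9 were called higher and 20 lower. The pyruvate dehydrogenase phosphatase PDP2 (0.61) was among the higher. TIGAR (-0.83), DLAT (-0.81) and DLD (-0.60), subunits of the pyruvate dehydrogenase complex in the case of DLAT and DLD, were among the lower.

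**Figure D4:**
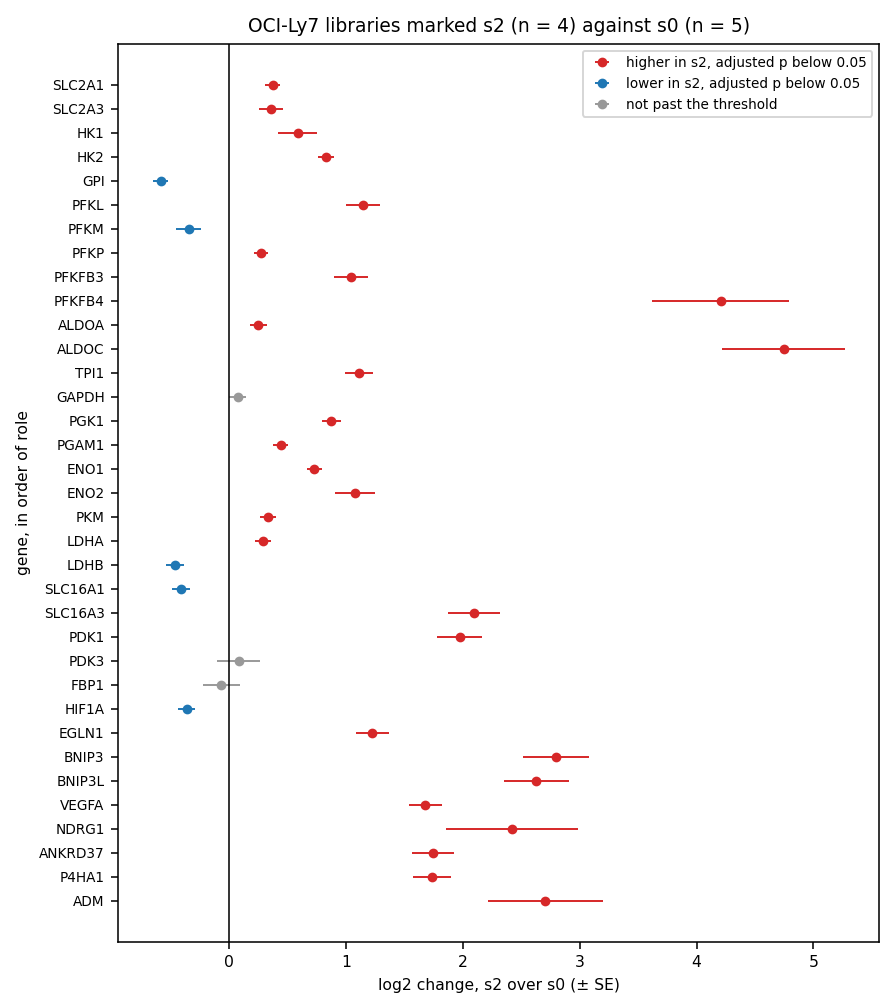
Log2 change of 35 genes in the 4 OCI-Ly7 libraries marked s2 against the 5 marked s0 (points; bars are the standard error of the edgeR fit), by role. ALDOC (4.74) and PFKFB4 (4.21) are farthest to the right, and the 5 genes called lower, GPI, LDHB, SLC16A1, HIF1A and PFKM, lie left of 0.

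**Figure D5:**
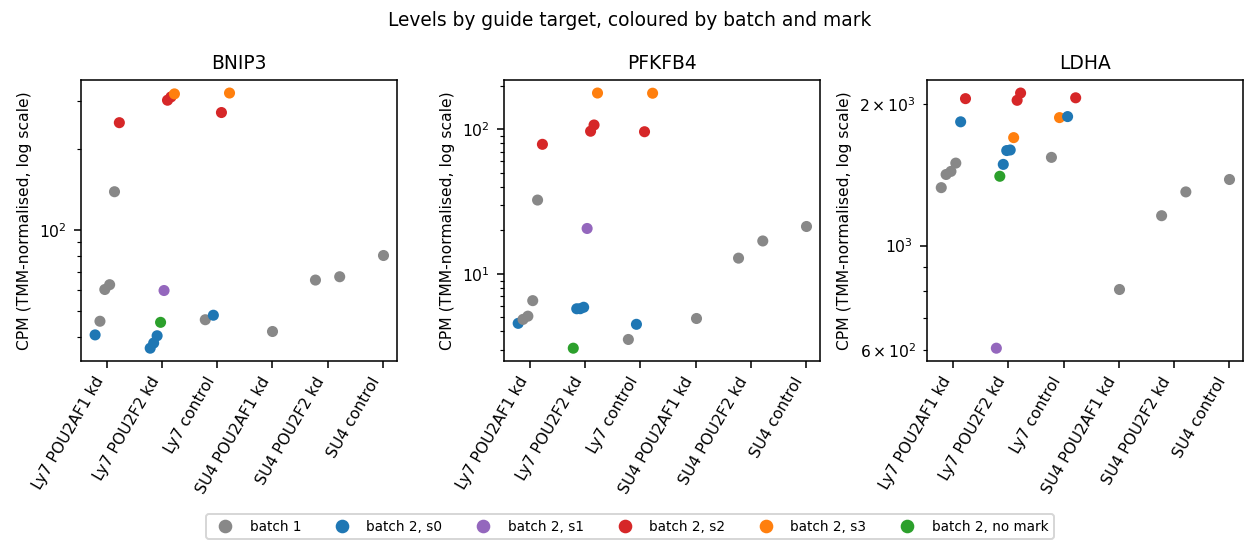
CPM of BNIP3, PFKFB4 and LDHA in each library on a log axis, by line (Ly7, OCI-Ly7; SU4, SUDHL4) and guide group, coloured by batch and series mark. In BNIP3 and PFKFB4 the s2 and s3 libraries of every OCI-Ly7 group lie together above the s0 libraries (250 to 311 CPM of BNIP3 in s2, 36.4 to 48.2 CPM in s0), while LDHA spreads less, with 1 POU2F2 knockdown library at 605 CPM.

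The DNA before the start of the 6 genes that moved most between s2 and s0, of those with a window, is shown with that of FBP1, because HIF binds the core ACGTG or GCGTG and POU2F2 binds the octamer ATGCAAAT. Windows are the 250 bases before a gene's start in RefSeq (GRCh38.p14), and 31 of the 36 genes had one, the others being BNIP3L, NDRG1, VEGFA, SLC2A3 and SLC16A1. Capitals mark ACGTG or GCGTG on either strand, searched as letters only, where overlapping matches were counted separately. The windows are ALDOC chr17:28576896-28577145, PFKFB4 chr3:48556804-48557053, BNIP3 chr10:131981924-131982173 and FBP1 chr9:94639519-94639768 on the minus strand, and ADM chr11:10304823-10305072, SLC16A3 chr17:82228792-82229041 and PDK1 chr2:172555840-172556089 on the plus strand.
ALDOC: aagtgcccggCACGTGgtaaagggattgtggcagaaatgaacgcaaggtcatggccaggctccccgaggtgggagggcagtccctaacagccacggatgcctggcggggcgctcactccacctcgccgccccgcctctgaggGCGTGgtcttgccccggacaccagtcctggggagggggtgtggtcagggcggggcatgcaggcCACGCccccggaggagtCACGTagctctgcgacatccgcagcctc
PFKFB4: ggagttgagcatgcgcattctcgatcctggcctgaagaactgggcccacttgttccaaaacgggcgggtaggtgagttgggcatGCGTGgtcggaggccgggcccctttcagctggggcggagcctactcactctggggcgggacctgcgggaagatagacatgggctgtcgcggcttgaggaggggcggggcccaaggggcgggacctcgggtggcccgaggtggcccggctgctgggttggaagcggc
BNIP3: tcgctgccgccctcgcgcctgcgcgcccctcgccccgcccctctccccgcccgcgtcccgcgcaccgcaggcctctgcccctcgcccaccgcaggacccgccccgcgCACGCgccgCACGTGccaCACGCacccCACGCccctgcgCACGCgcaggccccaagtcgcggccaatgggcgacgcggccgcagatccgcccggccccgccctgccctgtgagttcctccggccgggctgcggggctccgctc
ADM: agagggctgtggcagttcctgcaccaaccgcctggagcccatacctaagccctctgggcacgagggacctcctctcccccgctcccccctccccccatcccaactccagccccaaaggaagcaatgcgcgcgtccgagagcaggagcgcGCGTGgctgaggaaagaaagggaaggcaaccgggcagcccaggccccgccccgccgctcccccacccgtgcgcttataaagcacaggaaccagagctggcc
SLC16A3: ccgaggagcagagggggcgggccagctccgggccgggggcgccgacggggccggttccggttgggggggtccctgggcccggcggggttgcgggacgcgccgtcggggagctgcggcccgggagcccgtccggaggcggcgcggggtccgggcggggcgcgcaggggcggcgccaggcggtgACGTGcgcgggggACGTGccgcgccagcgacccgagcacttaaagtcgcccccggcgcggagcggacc
PDK1: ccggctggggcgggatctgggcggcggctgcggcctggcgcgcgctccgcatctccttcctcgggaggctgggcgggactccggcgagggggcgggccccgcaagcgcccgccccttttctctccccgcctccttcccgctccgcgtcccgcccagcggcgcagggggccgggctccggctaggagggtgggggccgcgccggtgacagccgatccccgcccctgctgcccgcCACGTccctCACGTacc
FBP1: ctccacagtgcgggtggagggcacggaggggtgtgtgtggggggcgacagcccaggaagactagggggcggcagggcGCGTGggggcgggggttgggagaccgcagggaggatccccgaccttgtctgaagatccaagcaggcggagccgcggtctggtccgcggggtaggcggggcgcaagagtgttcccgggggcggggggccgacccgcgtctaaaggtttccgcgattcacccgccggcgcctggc
BNIP3 held 6 matches, ALDOC 5, SLC16A3 and PDK1 2 each, and PFKFB4, ADM and FBP1 1 each. Of the 31 windows of the 36 genes, 23 held at least 1 match, beside 43.2% of all 35116 windows. The narrower ACGTG was in 16 of the 31 and in 18.5% of all. LDHA, which moved by 0.29, held 5 matches, so the number of matches did not order the genes by their change. The octamer ATGCAAAT was in 1 of the 31, that of EGLN3, and in 1.63% of all windows, and the FBP1 window had none. The windows were not all at the start of the transcript with the highest TPM. The FBP1 window lies 1105 bases from that start, the ALDOC window 369, the ADM window 393 and the EGLN3 window 178970 bases. Among the other windows shown the largest distance was 90 bases, for BNIP3. A match is a run of letters and not a bound site.

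By transcript, pyruvate kinase was mostly the M2 form in every library. PKM transcripts with the M2 exon held 87.5% to 91.0% of the TPM of those with either exon in OCI-Ly7 POU2AF1 knockdown, 80.5% to 93.9% in POU2F2 knockdown and 87.6% to 93.4% in control. In SUDHL4 the share was 92.6% in POU2AF1 knockdown, 91.1% and 90.2% in POU2F2 knockdown and 88.7% in control. These are the alternative exons of 167 bases each that set the regulation of the enzyme. The groups overlapped in OCI-Ly7 when the marks were ignored, and within each mark every knockdown library was below its control. POU2AF1 knockdown had 89.3% to 91.0% and control 93.4% in batch 1, POU2AF1 knockdown 90.1% and control 91.8% in s0, and POU2AF1 knockdown 87.5% and control 88.4% in s2. POU2F2 knockdown had 90.4% to 91.5% and control 91.8% in s0, POU2F2 knockdown 85.3% and 87.3% and control 88.4% in s2, and POU2F2 knockdown 84.8% and control 87.6% in s3. In SUDHL4 all 3 knockdown libraries were above the control. These shares were not tested, and 2 POU2F2 knockdown libraries have no control of their mark. For FBP1 in OCI-Ly7 the transcript ENST00000648117.1 carried 98.7% to 100% of the TPM, so the lower level in POU2AF1 knockdown was that of 1 transcript.

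Processed copies of these genes can share reads with them. BNIP3 has 44 annotated pseudogenes, which together held 2.53% to 23.9% of the reads of BNIP3 and its copies. Their summed level was 7.81 to 12.8 CPM in s2 and 3.79 to 6.42 CPM in s0, so that the copies were also higher in s2 but stayed far below BNIP3. In SUDHL4 the copies went the other way from BNIP3, with 13.3 CPM in POU2AF1 knockdown, 9.34 and 9.71 CPM in POU2F2 knockdown and 6.12 CPM in control. For LDHA the share was 1.43% to 1.70%, and for SLC2A3, where the SUDHL4 libraries had few reads, 0% to 20.1%. The values of BNIP3 and of SLC2A3 in SUDHL4 are uncertain to that extent.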

How the data were processed

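RNA was measured by stranded mRNA sequencing of OCI-Ly7 and SUDHL4 cells. Per the submitters' processing notes, the authors used fastp and Salmon 1.5.1 with GRCh38.p13; the transcript release is not given in the sources used here. The deposited files give estimated counts of reads and TPM per transcript. Of 227912 transcripts, 205964 matched GENCODE 29 identifiers and held 98.4% to 98.9% of reads. Deposited estimated counts and deposited TPM were summed over 58592 genes, and counts were rounded.

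Files of a group were merged as 1 library where the median ratio of squared difference to sampling variance was under 1.5, a threshold and a median chosen after the values were seen (3 merged pairs at 1.12 to 1.15, 53 others at 2.39 to 70.4). A ratio of sums over genes had been planned. It was 1.28 for the merged OCI-Ly7 control pair, 1.20 for SUDHL4 control and 20.6 for SUDHL4 POU2AF1 knockdown, and at least 49.7 for the others. Under 1.5 on that ratio, the SUDHL4 POU2AF1 knockdown files would have stayed 2 libraries. A file that repeated a sum of 2 others was left out. This left 22 libraries of the 26 files.

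Genes were tested with edgeR 4.0.16 (R 4.3.3; TMM; low genes dropped by filterByExpr at 10 counts; quasi-likelihood F test with robust dispersion; p-values adjusted by Benjamini-Hochberg over all genes tested and called below 0.05), separately in OCI-Ly7 with batch as a term (16002 genes), in SUDHL4 (16968 genes, 1 residual degree of freedom) and in all libraries with batch (18915 genes) for differences between lines. CPM values are TMM-normalised. The comparison of s2 with s0 was added after the values were seen. DESeq2 1.42.0, other normalisations, filters, blocks and left-out libraries were tried as alternatives. The scripts were tested on simulated data. Python 3.11.15 was used for levels, transcripts and promoter windows. Replicate numbers shared between groups did not pair the libraries.

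The members and the gene lists were chosen with earlier results of these data known. Named are members called in any comparison, or with the series mark as a term, and the 8 most abundant; of other lists at most 4 called genes a comparison. Floors and counts of reads cover counting error only.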

Additional observations from a re-analysis of the deposited data

Results flagged for a closer look

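In 16 of 105 combinations of a gene and an OCI-Ly7 group, over 15 genes, 1 library stood apart from the others of its group by Dixon's criterion, where chance gives about 1 in 20. All of these libraries carried a series mark that their group holds once. In POU2AF1 knockdown, replicate 6, the only library marked s2 there, was the highest for HK2 (202 CPM), PFKP (124 CPM), TPI1 (893 CPM), PGK1 (907 CPM), ENO1 (2650 CPM) and VEGFA (88.8 CPM) and the lowest for SLC16A1 (81.4 CPM). In the same group replicate 5, the only library marked s0, was the highest for GPI (474 CPM).

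In POU2F2 knockdown, replicate 8, the only library marked s3 there, was the highest for SLC16A3 (16.9 CPM), NDRG1 (1.51 CPM) and ADM (2.07 CPM). Replicate 1, the only library marked s1, was the lowest for ALDOA (449 CPM) and LDHA (605 CPM) and the highest for FBP1 (99.4 CPM). In control, replicate 7, the only library marked s0, was the highest for GPI (442 CPM) and LDHB (659 CPM).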

How the results depend on the processing

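Counts of called members are given; no called direction reversed. OCI-Ly7 POU2AF1 knockdown had 1 (FBP1), with 3 under the series block, 5 under it without POU2AF1 knockdown replicate 1, 0 within batch 1, 0 within batch 2 and 0 to 1 with each library left out (0 without control replicate 1). OCI-Ly7 POU2F2 knockdown had 0, and 1 under the series block without POU2AF1 knockdown replicate 1. POU2F2 against POU2AF1 knockdown had 0, with 1 by DESeq2, 2 without a batch term, 2 under the series block, 3 under it without POU2AF1 knockdown replicate 1, 1 with POU2F2 knockdown replicate 3 in batch 1, and 0 to 1 with each library left out (1 without POU2F2 knockdown replicate 1). SUDHL4 POU2AF1 knockdown had 20, and 0 in the fit of all libraries. SUDHL4 POU2F2 knockdown had 3, with 5 by RLE normalisation, 5 without mitochondrially encoded genes, 5 in a fit without the SUDHL4 POU2AF1 knockdown library (added after seeing the data), 15 with repeated files kept separate, 0 by DESeq2, 0 in the fit of all libraries and 0 there without either replicate. OCI-Ly7 against SUDHL4 control had 6, with 13 for repeated files kept separate, 3 without a batch term, 21 under the series block and 4 to 7 with each library left out. The line difference of the POU2AF1 response had 0, with 8 under the series block, 1 with repeated files kept separate and 1 with POU2F2 knockdown replicate 3 in batch 1; that of POU2F2 had 0 under every setting run. For s2 against s0, 32 became 31 to 32 with each library left out, and PFKM lost its call in 2 of 13 settings. The cause of these shifts was not tested.

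With the replicate number as a block, OCI-Ly7 POU2AF1 knockdown had 0 called members and POU2F2 against POU2AF1 knockdown 1, and FBP1 was -1.77 in POU2AF1 knockdown (adjusted p = 0.088). Deviations of 10 same-numbered pairs correlated at -0.491 to 0.686, with 5 over 0.1, and 2 of 20 libraries correlated best with their own number, so the samples share only a number. In SUDHL4 no fit of the line alone was possible with a POU2F2 knockdown library left out, and no block could be fitted there. With 1 POU2AF1 knockdown and 1 control library in SUDHL4, their difference has no replicate check. The 2 POU2F2 knockdown libraries of that line are set against the same 1 control library.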

Other observations

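Within the lactate dehydrogenase gene LDHA, transcript LDHA-205 held 2.49% to 28.1% of the gene's TPM over the OCI-Ly7 libraries and 0.526% to 8.53% over the SUDHL4 libraries. The ranges overlapped, and the difference was not tested.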
